A study of Mus musculus with 2 samples.

Results

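CTCF peaks at bidirectional coding promoters were the optimal peaks whose summit lay between the starts of 2 divergent protein-coding genes, or within 1 kb of either start. A pair was a minus-strand gene and a plus-strand gene of GENCODE M21 that pointed away from each other, with starts at most 1 kb apart in mm10. The annotation held 755 such pairs, made of 1489 of 21938 coding genes, and 565 of the 74283 optimal peaks on chromosomes were members. Of the pairs, 3 repeated the symbols of another pair under a different gene identifier, and 17 members fell in the windows of more than 1 pair and were counted once. The peaks came from CTCF ChIP-seq of stomach tissue of newborn mice (strain B6NCrl, age 0 days), untreated as far as the labels state, with 2 replicates in 1 group and no contrast of conditions. The labels number the replicates as biological but give both the same donor and tissue sample, so differences between them may be technical. The lists hold no read counts, so the depth is unknown, and a peak's signal is the value of the authors' peak caller, which ranks peaks within a list.

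CTCF is a zinc finger protein that binds a long GC-rich motif and, with cohesin, anchors chromatin loops and insulates neighbouring domains. Divergent gene pairs share one stretch of promoter DNA, usually a CpG island without a TATA box. Such pairs are known to hold many genes of DNA repair, the cell cycle and mitochondria, which most dividing cells use. A tissue sample mixes cell types, so a weak peak from all cells and a strong peak from few cells cannot be told apart.

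The DNA between the starts of 4 pairs is shown because the strongest peaks with a CTCF motif and a summit between starts at most 300 bp apart lay there. Sequences are the mm10 plus strand, from the base after the minus-strand gene's start to the base before the plus-strand gene's start, and capitals mark the best match to the CTCF matrix, whose consensus was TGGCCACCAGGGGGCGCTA over 19 positions. They lie at chr8:104534638-104534688 (Nae1/Car7), chr1:143777069-143777271 (Trove2/Uchl5), chr5:34660149-34660378 (Nop14/Grk4) and chr3:54735394-54735538 (Exosc8/Alg5). At Nop14/Grk4 the match is on the minus strand, so its capitals are the reverse complement of the bases that were scored.
Nae1/Car7: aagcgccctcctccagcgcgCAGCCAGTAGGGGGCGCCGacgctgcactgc
Trove2/Uchl5: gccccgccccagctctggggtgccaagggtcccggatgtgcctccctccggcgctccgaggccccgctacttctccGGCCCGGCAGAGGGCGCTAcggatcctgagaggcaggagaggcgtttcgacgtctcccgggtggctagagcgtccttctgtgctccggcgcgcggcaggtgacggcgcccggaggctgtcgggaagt
Nop14/Grk4: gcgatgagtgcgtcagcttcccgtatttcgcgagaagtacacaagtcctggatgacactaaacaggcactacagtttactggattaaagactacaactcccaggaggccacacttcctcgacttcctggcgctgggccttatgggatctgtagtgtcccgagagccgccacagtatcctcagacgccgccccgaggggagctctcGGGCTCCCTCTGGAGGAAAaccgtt
Exosc8/Alg5: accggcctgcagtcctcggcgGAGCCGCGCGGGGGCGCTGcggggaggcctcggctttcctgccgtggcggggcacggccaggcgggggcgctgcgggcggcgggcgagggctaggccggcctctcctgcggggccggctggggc

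The next 3 carried the strongest peaks between close starts whose best match stayed below the motif threshold, and capitals mark that weaker match. They lie at chr4:150914438-150914561 (Park7/Tnfrsf9), chr4:41569539-41569774 (Fam219a/Dnaic1) and chr1:37997894-37998009 (Txndc9/Eif5b). The match at Park7/Tnfrsf9 is on the minus strand and is printed as its reverse complement.
Park7/Tnfrsf9: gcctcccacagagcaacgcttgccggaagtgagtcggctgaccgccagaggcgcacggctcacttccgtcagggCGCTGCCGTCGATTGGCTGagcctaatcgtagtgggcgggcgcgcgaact
Fam219a/Dnaic1: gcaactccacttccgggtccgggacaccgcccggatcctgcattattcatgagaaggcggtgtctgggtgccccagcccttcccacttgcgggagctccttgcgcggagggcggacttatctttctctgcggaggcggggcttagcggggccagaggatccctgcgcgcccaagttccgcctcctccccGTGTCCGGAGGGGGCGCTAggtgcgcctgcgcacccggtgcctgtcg
Txndc9/Eif5b: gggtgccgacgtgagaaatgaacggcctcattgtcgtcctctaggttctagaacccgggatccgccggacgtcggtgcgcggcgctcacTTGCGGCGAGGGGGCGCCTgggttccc

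The 51 bases between Nae1, a subunit of the enzyme that activates the ubiquitin-like protein NEDD8, and Car7, a carbonic anhydrase, held a match scoring 24.9, with the summit 31 bp from the Nae1 start. The matches scored 18.8 at Trove2/Uchl5, 15.6 at Nop14/Grk4 and 13.4 at Exosc8/Alg5, against a threshold of 10.8 that 1% of random genome windows reached. At Exosc8/Alg5, which pairs an exosome subunit with a glycosylation enzyme, the printed bases held 2 matches over the threshold. The best scores within 50 bp of the summits without a motif were 7.61 at Park7/Tnfrsf9, 9.12 at Fam219a/Dnaic1 and 8.72 at Txndc9/Eif5b. These scores lay under the threshold while the signals were 303, 260 and 213. The window of Fam219a/Dnaic1, with 1 kb on either side, did hold 1 match over the threshold, outside the printed bases.

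A CTCF peak of any signal lay at most of the bidirectional pairs, and a peak of the stronger 50% of the optimal list by signal at 170 of them (22.5%). At least 1 optimal peak was found at 447 of the 755 pairs, or 59.2% (exact 95% interval 55.6 to 62.7). Of all coding gene starts, paired ones included, 37.7% had a summit within 1 kb. A pair's window spans both starts and the space between them, so these shares are of unlike windows. The share of pairs was 65.7% with the strongest peaks of replicate 1 and 56.0% with those of replicate 2, each list cut to the number of optimal peaks. A single peak was present at 325 pairs, 2 peaks at 109 and 3 peaks at 13, and 308 pairs had none. Intervals here and below cover counting error only, because pairs and peaks are not replicates.

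The starts of a pair were close together, with a median distance of 129 bp and a range of 0 to 987 bp. Pairs with a peak had a median distance of 136 bp (quartiles 74 and 248.5) and pairs without one 108.5 bp (quartiles 58.5 and 232), so the distributions largely overlapped. A peak was found at 53.5% of the 129 pairs with starts at most 50 bp apart (interval 44.5 to 62.3) and at 64.3% of the 70 pairs over 500 bp apart (interval 51.9 to 75.4). In the optimal list the highest share was 67.0%, among the 206 pairs 101 to 200 bp apart (interval 60.1 to 73.4). Between the closest and the widest pairs the shares were 69.0% and 70.0% in replicate 1, and 55.0% and 62.9% in replicate 2. The class of 301 to 500 bp was highest in both replicates, at 71.2% and 65.2%. The optimal-list intervals of the closest and widest pairs overlap, and this difference was not tested.

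**Figure D1:**
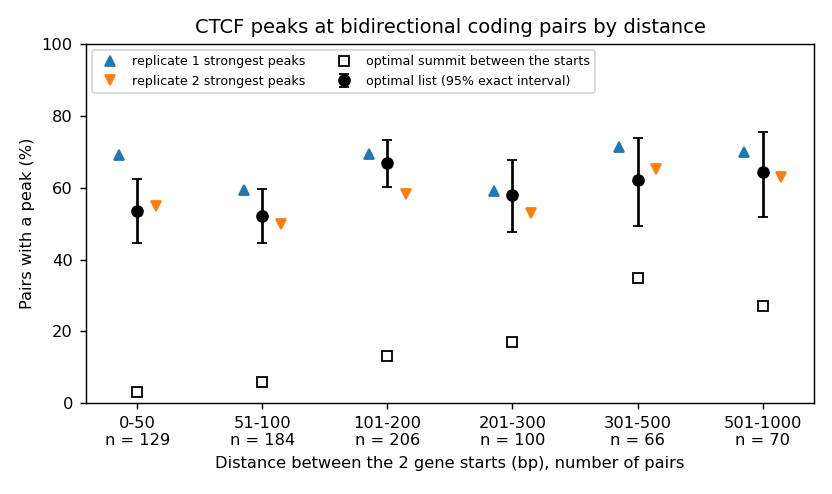
Share of bidirectional pairs with a CTCF peak (vertical axis, %) by distance between the 2 gene starts (horizontal axis, bp), for the optimal list with exact 95% intervals and for the strongest peaks of each replicate; open squares give pairs with an optimal summit between the starts. The optimal share lies between 52.2% and 67.0% in every class of distance, while the squares go from 3.10% in the closest pairs to 34.8% at 301 to 500 bp.

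Gene starts of bidirectional pairs had a CTCF peak more often than one-way coding starts, and this difference was not seen among CpG-rich starts. To count a shared peak once, the plus-strand gene of each pair was compared with plus-strand genes that had no divergent or overlapping coding partner within 1 kb, with 1 kb on either side of the start in both. A peak was present at 433 of 747 paired starts (58.0%) and at 3456 of 9758 one-way starts (35.4%), a difference of 22.5 points (interval 18.9 to 26.2, two-sided Fisher's exact test, adjusted p = 9.98e-33 over 5 tests). With peaks of the stronger 50% of the optimal list the shares were 21.7% and 16.6%, a difference of 5.11 points (Fisher's exact test, adjusted p = 0.000592). With the strongest peaks of each replicate the difference was 27.1 points in replicate 1 and 20.7 points in replicate 2.

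CpG-rich starts were defined by at least 50% GC and an observed over expected CpG ratio of at least 0.6 within 250 bp. For a pair as a whole the window ran from 250 bp left of the minus-strand gene's start to 250 bp right of the plus-strand gene's start. By these windows of unlike length, 87.2% of pairs and 43.3% of one-way starts were CpG-rich. Among CpG-rich starts a peak was present at 386 of 638 paired starts (60.5%) and at 2510 of 4267 one-way starts (58.8%). The difference was 1.68 points (interval -2.44 to 5.68) and did not pass Fisher's exact test (adjusted p = 0.437). Among starts that were not CpG-rich, a comparison chosen after the data were seen, the shares were 43.1% of 109 paired starts and 17.2% of 5491 one-way starts, a difference of 25.9 points (interval 16.9 to 35.3, Fisher's exact test, adjusted p = 2.08e-09).

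Within the pairs, too, peaks went with CpG-rich sequence. Of 658 CpG-rich pairs 61.2% had a peak, and of the 97 other pairs 45.4%, a difference of 15.9 points (interval 5.29 to 26.1, Fisher's exact test, adjusted p = 0.00386). The share was 43.0% at a CpG ratio under 0.6, 56.1% from 0.6 to 0.8, 66.4% from 0.8 to 1 and 55.1% at 1 and over, so the share did not go on rising in the class of highest ratio. Median GC content was 63.2% at pairs with a peak and 60.5% at pairs without one. In the stronger 50% of the optimal list by signal the difference between CpG-rich and other pairs was 2.18 points and did not pass (Fisher's exact test, adjusted p = 0.697).

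Summits clustered at the starts themselves and thinned out into both genes. Between the starts lay 104 of the 565 members (18.4%, interval 15.3 to 21.9), in the first 1 kb of the minus-strand gene 218 and in that of the plus-strand gene 243. Per kb of window there were 0.710 summits between the starts, 0.868 in the first 100 bp of either gene and 0.113 in the last 100 bp of the 1 kb. The same densities were 0.798, 0.934 and 0.0861 in replicate 1 and 0.682, 0.841 and 0.0993 in replicate 2. In the optimal list and in each replicate the fall from the starts to 1 kb was thus several times larger than the spread between replicates. Over all pairs together, the space between the starts was no denser than the first 100 bp of the genes. By class of distance the optimal list held 0.961 summits per kb between the starts (0-50 bp, from 4 summits), 0.798 (51-100), 0.859 (101-200), 0.728 (201-300), 0.983 (301-500) and 0.427 (501-1000).

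The minus-strand and plus-strand genes were alike in this, with 47.3% of the 461 flanking summits on the minus-strand side (interval 42.7 to 52.0). The median distance from a summit to the nearer start was 178 bp, 80.9% of members lay within 500 bp of a start, and the farthest lay 997 bp away. Just inside the limit, 17 members lay in the last 100 bp, with a median signal of 49.2, and 14 other summits lay in the 100 bp past it, with a median of 57.0. Of the 11 pairs with starts up to 100 bp under the 1 kb limit 7 had a peak, as did 9 of the 12 up to 100 bp over it. Of members 37.3% lay within 100 bp of a start, beside 28.1% of the 8241 peaks at one-way promoters, where a summit has 1 start to lie near in place of 2. Of the 104 summits between the starts, with the distance cut into 5 equal parts, 31 lay in the part next to the minus-strand gene, 23 in the middle and 21 in the part next to the plus-strand gene. By annotation, 200 members lay in an untranslated region, 166 in an intron, 95 between genes, 68 in a coding exon and 36 in a noncoding exon. These classes were not counted for one-way promoter peaks or all optimal peaks, so they do not set members apart.

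**Figure D2:**
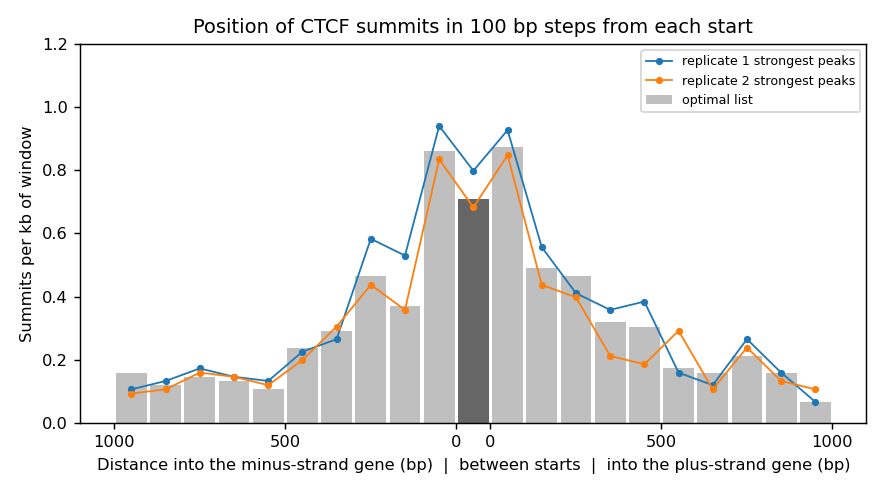
Summits per kb of window (vertical axis) in 100 bp steps from the start into the minus-strand gene (left) and the plus-strand gene (right), with the dark centre bar for the space between the starts; bars are the optimal list and lines the strongest peaks of each replicate. All 3 lists are highest at the starts, with 0.710 per kb between the starts and 0.868 per kb in the first 100 bp of the genes in the optimal list.

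Most members lacked a CTCF motif and most ranked in the weaker part of the optimal list, while the strongest of them ranked 69 of 74283. Member signals ran from 5.01 to 592 with a median of 43.6 (quartiles 25.5 and 96.9), beside a median of 57.0 at one-way promoters and 80.9 at peaks away from coding starts. In the stronger 50% of the optimal list lay 176 members (31.2%) and 3404 of the one-way promoter peaks (41.3%), a difference of -10.2 points (interval -14.0 to -6.08, Fisher's exact test, adjusted p = 2.72e-06). Among members at CpG-rich pairs and peaks at CpG-rich one-way starts the shares were 30.6% and 39.5% (adjusted p = 0.000114, Fisher's exact test). Median signal differed little by place, at 40.3 between the starts, 43.6 on the minus-strand side and 45.4 on the plus-strand side. The upper quartile was higher between the starts, at 148, beside 87.1 on the minus-strand side and 105 on the plus-strand side.

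The CTCF motif was found within 50 bp of the summit at 166 members, or 29.4% (interval 25.7 to 33.3), where 68.0% of all optimal peaks had it. It was found in 39.7% of one-way promoter peaks, so members were lower by 10.3 points (difference -10.3, interval -14.1 to -6.32, Fisher's exact test, adjusted p = 2.19e-06). The control windows 1 kb to the left and right of the member summits had it in 1.95% and 1.06% of cases, and the midpoints of pairs without a peak in 2.60%. The share between the starts was 27.9%, beside 28.0% on the minus-strand side and 31.3% on the plus-strand side. These shares depend on the threshold. At a stricter threshold, met by 0.1% of random windows, the motif was found at 2.12% of members and 7.58% of one-way promoter peaks.

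Members with the motif had a median signal of 100 (quartiles 49.5 and 252) and those without it 35.7 (quartiles 23.0 and 66.8). The motif was present at 9.56% of members with a signal under 25, 17.0% from 25 to 50, 34.2% from 50 to 100, 44.6% from 100 to 200 and 74.0% over 200. One-way promoter peaks of the same classes had it in 14.1%, 24.8%, 37.7%, 49.0% and 77.7% of cases, higher in each class, a description without a test. Motif matches were also weaker at members, with a median score of 13.9 against 15.1 at one-way promoter peaks with a motif.

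**Figure D3:**
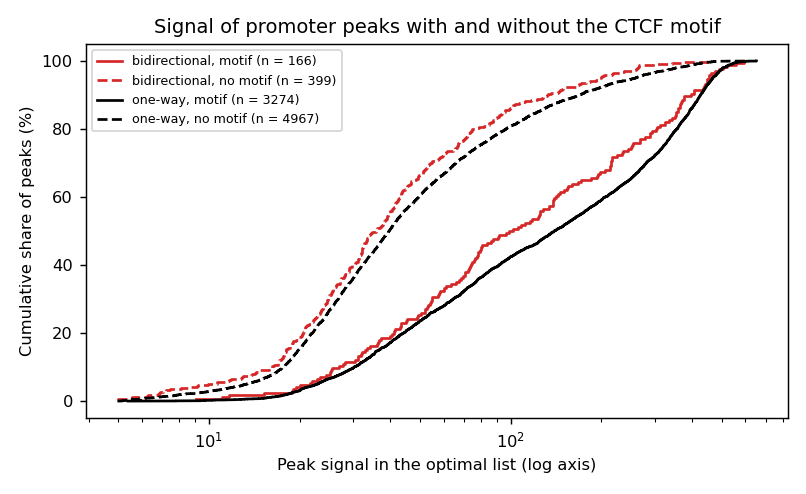
Cumulative share of peaks (vertical axis, %) against optimal-list signal (horizontal log axis) for bidirectional and one-way promoter peaks with and without the CTCF motif. The curves of peaks with the motif lie to the right, with medians of 100 at bidirectional and 140 at one-way promoters, against 35.7 and 39.6 without it.

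No preferred direction of the motif was detectable. It lay on the plus strand in 88 of the 166 members with one (53.0%, interval 45.1 to 60.8), and inside the genes it read in the direction of transcription in 61 of 137 (44.5%, interval 36.0 to 53.3). The motif centre lay within 10 bp of the summit in 62.7% of these members. Over whole windows, 266 of the 447 pairs with a peak held a match somewhere (59.5%), against 101 of the 308 without one (32.8%). Of all 501 matches in the windows 35.5% had a summit within 50 bp, as did 13 of the 15 matches that passed the stricter threshold met by 0.1% of random windows. Both thresholds were set on random windows reaching 50 bp on either side of a point. Pair windows are longer, so more matches can lie in a pair window at random, and that number was not counted.

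The strongest member lay at Hjurp/Trpm8, which pairs a centromere histone chaperone with a cold-sensing ion channel. Its summit was 45 bp inside Trpm8, in a noncoding exon, with a signal of 592 in the optimal list, 319 in replicate 1 and 272 in replicate 2. At Wrap53/Trp53, the p53 tumour suppressor and its divergent neighbour, the peak lay in a Wrap53 intron, 791 bp from that gene's start, with a signal of 559 (305 and 257 in replicates 1 and 2). The Nae1/Car7 peak, whose bases are printed above, had a signal of 520 (298 and 224). All 3 had the motif and ranked high in both replicates.

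The other members of the 10 strongest pairs lay near or between the starts in most cases. Tctn3/Entpd1, a ciliary gene and an enzyme that breaks down extracellular ATP, had a signal of 506 with the summit 48 bp inside Entpd1. Tas1r1/Nol9, a taste receptor and a ribosomal RNA processing gene, had 489, and Ddias/Prcp, a suppressor of apoptosis after DNA damage and a carboxypeptidase, had 474. Exd1/Chp1, a gene of germline small RNAs and a calcineurin-like protein, had 462, with the summit 530 bp inside Exd1. Gm10644/Asf1b, which includes a histone chaperone of replicating cells, had 461. Klc3/Ckm, with the creatine kinase of muscle, had 456 at 788 bp inside Ckm, and Trove2/Uchl5, an RNA-binding protein and a deubiquitinase, had 454. Across the 10 pairs signals were 263 to 319 in replicate 1 and 180 to 272 in replicate 2. The motif was found at 9 of these 10, and the Gm10644/Asf1b peak had a best score of 10.2, just under the threshold.

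A strong peak far from any match in score lay at Ccdc173/Phospho2, chosen for print after its values were seen because it was the strongest member with a best score below 0. The summit lay in an intron of Phospho2, a phosphatase gene, 855 bp from its start, with a signal of 368 (212 in replicate 1 and 156 in replicate 2) and a best score of -2.40. The 101 bases around it, at chr2:69790428-69790528 on the plus strand of mm10, are shown with the summit base in capitals.
Ccdc173/Phospho2: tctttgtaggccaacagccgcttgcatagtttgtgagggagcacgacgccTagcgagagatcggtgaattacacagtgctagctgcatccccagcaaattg

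The pairs named here had 3 peaks, the most of any pair, and were chosen among the 13 such pairs by the signal of their strongest peak. At Hnrnpdl/Enoph1, an RNA-binding protein and an enzyme of methionine salvage, signals were 377 in a coding exon of Hnrnpdl, 16.8 at its start and 12.9 just inside Enoph1. The 2 weak peaks had no summit within 100 bp in replicate 2. Lyzl4/Vipr1 had 245, 74.4 and 25.7, Zfp319/Usb1 217, 125 and 24.9, and Uqcrh/Lrrc41 203, 84.8 and 32.3. At Lyzl4/Vipr1, which includes a receptor of a gut neuropeptide, all 3 peaks had the motif, and at Uqcrh/Lrrc41 none did. Of the 122 pairs with 2 or more peaks, 58 had a peak inside each gene (47.5%, interval 38.4 to 56.8). Members had another optimal summit within 300 bp in 10.1% of cases, beside 5.72% of one-way promoter peaks and 2.07% of all optimal peaks.

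Both replicates held most members, but less often than one-way promoter peaks. A summit within 100 bp was found among the strongest peaks of replicate 1 for 485 members (85.8%), of replicate 2 for 406 (71.9%), of both for 376 (66.5%, interval 62.5 to 70.4) and of neither for 50. The share in both was 83.2% over all optimal peaks and 74.1% at one-way promoters, a difference of -7.57 points between members and one-way promoter peaks (interval -11.7 to -3.68, Fisher's exact test, adjusted p = 0.000144). In the stronger 50% of the list the sign turned, since all 176 members and 99.6% of one-way promoter peaks were in both (difference 0.353 points, Fisher's exact test, adjusted p = 1). The optimal list was derived from these replicates, so sharing is a description only. Sharing was counted among the strongest peaks of each replicate, so it depends on signal. Median signal was 43.6 at members and 57.0 at one-way promoters, and the test did not hold signal equal.

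Sharing rose with signal. Of members with a signal under 25, 5.15% were in both replicates, from 25 to 50 it was 66.7%, from 50 to 100 97.5%, and over 100 all were. Members with the motif were in both in 85.5% of cases and those without it in 58.6%. Their median signals were 100 and 35.7, and sharing by motif was not compared within classes of signal. A conservative summit lay within 100 bp of 74.2% of members and of 88.5% of all optimal peaks. In the whole relaxed lists, 537 members had a summit in replicate 1 and 499 in replicate 2.

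Replicate 1 gave the higher signal at most members. Signals had a median of 31.1 in replicate 1 (3.84 to 319) and 19.6 in replicate 2 (2.63 to 272), and the median log2 ratio of replicate 1 to replicate 2 was 0.68 over the 480 members found in both relaxed lists. That median was 0.66 at one-way promoters and 0.40 at peaks away from coding starts, and the lists are not scaled to each other, so only the difference between the groups can be read. Across members the signals had a Spearman rho of 0.857, over peaks of the same 2 libraries. The members most uneven towards replicate 1 were at Peg3/Usp29, an imprinted pair (48.8 and 5.74), and Rbks/Babam2 (27.8 and 3.30), and towards replicate 2 at Hadha/Hadhb, both subunits of the mitochondrial trifunctional protein (6.00 and 22.0). These 3 were named after their values were seen.

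**Figure D4:**
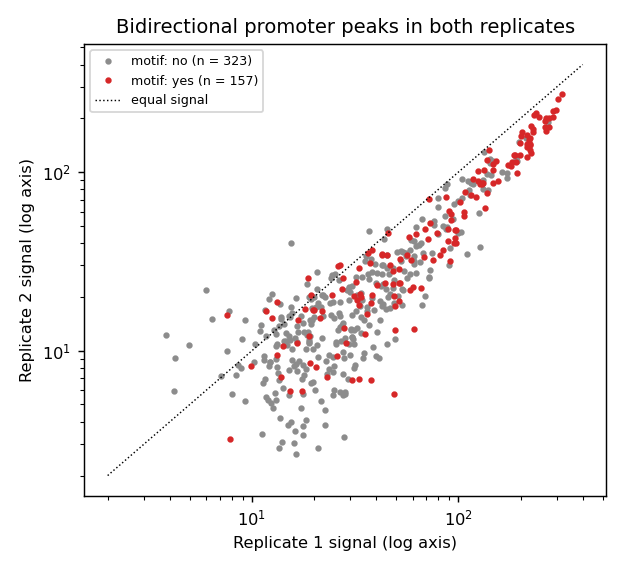
Replicate 1 signal (horizontal log axis) against replicate 2 signal (vertical log axis) for the 480 members found in both relaxed lists, with members that have the CTCF motif in red and the others in grey; the dotted line marks equal signal. Most points lie below the line, the strongest reach 319 and 272, and the scatter widens at low signal.

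By gene function, pairs with genes of mitochondrial translation and respiration had intervals that included the share of all pairs, and histone pairs had few peaks. The lists were described beside the 59.2% of all pairs and the median strongest signal of 54.9 at pairs with a peak, without a test. Of 18 pairs with a mitochondrial ribosome gene 13 had a peak (72.2%, interval 46.5 to 90.3), led by Mrps12/Sars2 (signal 434, in a coding exon of the mitochondrial seryl-tRNA synthetase Sars2), Mrps18b/Ppp1r10 (289) and Mrpl40/Hira (155), while Lrrc46/Mrpl10 and Mrpl32/Psma2 had none. Of 27 pairs with respiratory chain or mitochondrial chaperonin genes 17 had one (63.0%), led by Uqcrh/Lrrc41 (203), Atp5c1/Kin (140) and Sdhd/Timm8b (124), and Cebpz/Ndufaf7 and Esf1/Ndufaf5, which hold assembly factors of complex I, had none. All 5 pairs with a tRNA synthetase gene had a peak, among them S100pbp/Yars (111) and Orc3/Rars2 (90.2, between starts 13 bp apart). The intervals of these lists include the share of all pairs.

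Genes of genome maintenance stood at 14 of 26 pairs for DNA repair (53.8%, interval 33.4 to 73.4) and 5 of 11 for cell cycle and replication (45.5%, interval 16.7 to 76.6). Beside Wrap53/Trp53, Hscb/Chek2, with a checkpoint kinase, had 2 peaks in Chek2 introns of signal 206 and 164, and Recql4/Lrrc14, with a DNA helicase, had 117 between the starts. Aimp2/Pms2, with a mismatch repair gene, and Ccnb1ip1/Parp2 had none. Atm/Npat, a DNA damage kinase and a regulator of histone transcription, had a peak of 102 between the starts, without a motif (64.6 in replicate 1 and 39.1 in replicate 2). Brca1/Nbr1 had one of 110 in an untranslated region of Nbr1, 793 bp from its start, and Dbf4/Slc25a40 one of 57.5. Aurka/Cstf1 and Mcm4/Prkdc, which joins a replicative helicase subunit and a repair kinase, had none.

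Replication histone genes, which sit in clusters of divergent pairs, had a peak in 3 of 14 pairs (21.4%, interval 4.66 to 50.8). The strongest, at Bola1/Hist2h2ab, had a signal of 103 in a Bola1 intron, and those at Hist1h2ak/Hist1h2bn and Hist2h2ac/Hist2h2be reached 25.9 and 21.9, both in histone coding exons. Hist1h2ac/Hist1h2bc and Hist1h2ae/Hist1h2bg had none. Chromosome 13, which holds the large histone cluster, had the lowest share of the chromosomes with pairs, at 13 of 38 (34.2%), or 12 of 26 (46.2%) without histone pairs. The X chromosome had 9 of 20 and the autosomes together 59.6%.

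Of pairs with a cytosolic ribosome symbol 5 of 10 had a peak, led by Polr3a/Rps24 (404, 4 bp inside Rps24) and Zwilch/Rpl4 (86.8), with Rps6kb1/Tubd1 at 24.1, where Rps6kb1 is a kinase and not a ribosomal protein. Med22/Rpl7a and Rnf151/Rps2 had none. Proteasome symbols gave 4 of 8, led by Cep76/Psmg2 (125, an assembly chaperone), Ftsj3/Psmc5 (117) and Psma7/Ss18l1 (81.8), and none at Dnajc2/Psmc2. Zinc finger genes gave 11 of 19, with Zfp319/Usb1 first and Zfp597/Gm20695 (123) and Dedd2/Zfp526 (57.6) next, and none at Cct6b/Zfp830 or Grik5/Zfp574. Of the 6 pairs with a CTCF or cohesin gene 1 had a peak (16.7%, interval 0.421 to 64.1). It was Ribc1/Smc1a, with a core cohesin subunit (signal 53.3), and Gm43720/Stag3 and Gpc2/Stag3, which share Stag3, had none. The intervals of the cytosolic ribosome, proteasome, zinc finger and CTCF or cohesin lists all include the 59.2% of all pairs. The collagen pair Col4a4/Col4a3 had none. None of the 35 listed genes of stomach epithelium, smooth muscle and enteric nerves belonged to a pair.

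**Figure D5:**
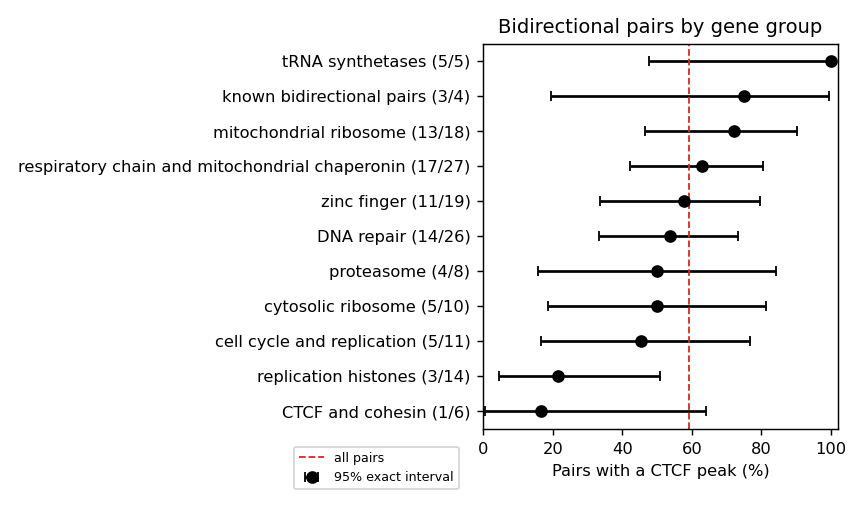
Share of bidirectional pairs with an optimal CTCF peak (horizontal axis, %) for each gene list with 4 or more pairs, with exact 95% intervals; the dashed line is the 59.2% of all pairs. Replication histones (3 of 14) is the list whose interval lies wholly below the line, and every other interval crosses it.

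Short words of promoter factors were compared at pairs with and without a peak, in the DNA between the starts and 250 bp on either side, on both strands and with no test. The ETS word CCGGAAG was present at 38.5% of pairs with a peak and 38.3% without, the Sp1 word GGGCGG at 87.0% and 81.8%, and the NFY word CCAAT at 55.9% and 64.0%. AAGATGGCG (YY1) was at 10.5% and 7.47%, GCGCATGC (NRF1) at 8.28% and 8.44%, TGACGTCA (CRE) at 5.59% and 4.55%, TATAAA at 7.38% and 9.09%, and ACTACAAT (ZNF143) at 1.79% and 1.95%. In windows of 501 bp, the ETS word was at 33.5% of pair midpoints, 12.4% of one-way starts and 21.9% of CpG-rich one-way starts, and TATAAA at 6.62%, 17.6% and 7.07%. In the 101 bp around member summits the ETS word was at 4.22% of those with the CTCF motif and 7.52% of those without it. The words can overlap each other and a match is no sign of binding.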

How the data were processed

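CTCF ChIP-seq of newborn mouse stomach was analysed from 5 deposited peak lists in mm10. Per the deposited file descriptions, these include relaxed lists of replicate 1, replicate 2 and both together (300000 peaks each). The others are optimal and conservative lists thresholded by IDR, which selects peaks by how reproducibly they rank. Which peak caller, aligner and IDR threshold were used is not given in the sources used here. Each deposited signal is the authors' value for a peak, not scaled between lists. The deposited −log10 q-values ran from 0.270 to 5.12 in the optimal list and were not used to rank peaks. Another 10 optimal peaks on unplaced scaffolds were set aside.

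The summit is the deposited peak start plus the offset. Genes came from GENCODE M21 and sequence from the RefSeq GRCm38.p6 FASTA, whose chromosome lengths contain every optimal peak. The CTCF matrix was aligned on the 1000 strongest optimal peaks over 5 kb from any coding start (978 used), so that no coding promoter peak shaped it, and its threshold came from 20000 random windows. Shares carry exact Clopper-Pearson 95% intervals, differences Newcombe 95% intervals, and 5 two-sided Fisher's exact tests were adjusted by Benjamini-Hochberg at 0.05. For each alternative setting, its p took the place of the main p among the 5 tests before adjustment. The adjusted values therefore do not account for the number of alternatives tried. Regions are not replicates, so these p-values measure counting error.

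Pairs named were the 10 strongest, 5 of the 13 with most peaks (ties broken by strongest signal), up to 3 with and 2 without a peak in each gene list, and listed known pairs. One pair that this rule takes is not reported here. Members and lists were chosen with earlier results of these data known. The motif search and the test were checked on simulated data. Analyses used Python 3.11.15, numpy 2.4.6, pandas 2.3.3, scipy 1.17.1, statsmodels 0.14.6 and matplotlib 3.10.9.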

Additional observations from a re-analysis of the deposited data

Results flagged for a closer look

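At 282 of the 308 pairs without an optimal peak (91.6%), the relaxed list of both replicates together held a peak, a signal in data that the comparisons above did not use. At 258 of the 308 a relaxed peak was present in each replicate. The strongest relaxed peak of such a pair had a median signal of 14.3 (5.04 to 58.6), and 9.57% of these peaks had the CTCF motif, beside 9.56% of members with a signal under 25. The highest were at Zcchc17/Snrnp40 (58.6), Dad1/Abhd4 (44.9) and Nr1h3/Acp2 (38.6), each with a peak among the strongest of both replicates. How many relaxed peaks are background was not tested. The same share was not counted at one-way starts, so the 91.6% cannot be read as particular to these pairs.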

How the results depend on the processing

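The excess of peaks at paired over one-way starts kept its direction and passed in every list, distance and gene model tried, but not among CpG-rich starts (1.68 points, adjusted p = 0.437, Fisher's exact test; 5.11 points in the stronger 50% of the list, adjusted p = 0.000592). Its differences were 20.7 points without replicate 1 and 27.1 without replicate 2. The share of pairs with a peak was 22.5% in the stronger 50% of the list, 52.1% at 500 bp and 13.4% between the starts only, and 56.0% to 65.7% when a replicate was left out. The share of summits between the starts was 18.8% in the conservative list, 19.3% in the stronger 50%, 22.8% at 500 bp, 13.3% for starts at most 300 bp apart, 21.5% with overlapping gene starts added, 17.8% with named genes of level 1 or 2, and 18.8% to 18.9% without a replicate; windows of other sizes change it by construction. The lower motif share of members kept its direction and passed in each alternative (-12.0 to -5.46 points), as did their lower share in the stronger 50% by signal (-11.1 to -6.79). The -5.46 points came from the stricter motif threshold, where the shares were 2.12% of members and 7.58% of one-way promoter peaks. The lower share in both replicates turned to 0.353 points in the stronger 50%, where nearly every peak is shared. The difference by CpG content did not pass in the stronger 50% (2.18 points) and passed narrowly without replicate 1 (11.1 points, adjusted p = 0.0483, Fisher's exact test; 18.6 points without replicate 2). Adding 456 pairs with overlapping starts changed no call. No paired analysis was possible because there is 1 group. Depth behind a peak is unknown here, so absence of a peak at a pair is absence from a list.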

Other observations

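Among members with a signal over 200, 54 of 73 had the CTCF motif (74.0%, exact 95% interval 62.4 to 83.5). The pairs here were named after their values were seen. Tbc1d10c/Ppp1ca, with a catalytic subunit of protein phosphatase 1, had a peak between the starts of signal 342 (196 in replicate 1 and 147 in replicate 2) and a best motif score of 4.64. Anxa5/1810062G17Rik, with a phospholipid-binding annexin, had 255 (143 and 113) and a best score of -4.05. Both scores are within 50 bp of the summit. The whole window of Anxa5/1810062G17Rik held 1 match over the threshold, and that of Tbc1d10c/Ppp1ca held none. Of 2 imprinted pairs, Sgce/Peg10 had a peak of 192 without the motif, with 113 in replicate 1 and 79.2 in replicate 2, and Peg3/Usp29 had one of 55.0 with the motif.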
